A study of Mus musculus with 24 samples.

Results

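The genes described here are 7 genes used as markers of the pyramidal neurons of hippocampal field CA1, namely Wfs1, Fibcd1, Mpped1, Pou3f1, Spink8, Man1a and Fezf2. They were found by symbol among the probe sets annotated to a single gene, each was measured by 1 probe set, and all 7 passed the filter on low values, which left 17108 genes for testing. Hippocampal RNA of single mice was hybridised to 24 Affymetrix Mouse Gene 2.0 ST arrays, and values are log2 expression after RMA. There were 3 arrays from mice given vorinostat (SAHA, an inhibitor of histone deacetylases), 3 from mice given tadalafil (an inhibitor of phosphodiesterase 5), 7 from mice given the combination of both drugs, 4 from mice that received CM-414 (given in the sources by code name alone) and 7 from mice given vehicle (saline in some labels). All mice, those given vehicle included, were transgenic for a human amyloid precursor protein with the Swedish mutation. The sources write the strain as B6.Cg-Tg(APPswe)E1-2Dbo/J, whereas the study's methods name the Tg2576 model on a background that includes SJL. Whether these names stand for the same line was not resolved here. The mice were 16 to 18 months old, were treated for 4 weeks, and then went without drug for 4 weeks before the tissue was taken. The study's methods give female mice, a prion promoter driving the transgene, memory tests during treatment and a further maze test after the weeks without drug. They describe arrays of 3 animals per group and no CM-414 group, so these details are not known to cover every array. No group without the transgene was analysed here.

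Pyramidal neurons of CA1 are the main output cells of the hippocampus. They receive input from CA3 through the Schaffer collaterals and from the entorhinal cortex, and their synapses are the classic site of long-term potentiation. Among the genes followed here, Fezf2 and Pou3f1 encode transcription factors, Wfs1 and Man1a encode proteins of the endoplasmic reticulum and the Golgi, Fibcd1 encodes a cell surface receptor, Spink8 belongs to a family of protease inhibitors, and Mpped1 is named for its metallophosphoesterase domain. None of them is made by CA1 neurons alone: Fezf2, for instance, is best known for specifying the subcortical projection neurons of the neocortex. In RNA of whole hippocampus, fewer CA1 neurons and less RNA per neuron cannot be told apart.

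The genes lie on separate chromosomes, at chr14:12338992-12346803 (Fezf2), chr4:124657646-124660655 (Pou3f1), chr5:36966104-36988982 (Wfs1), chr10:53904785-54076616 (Man1a), chr2:31813290-31846964 (Fibcd1), chr9:109812203-109826628 (Spink8) and chr15:83779472-83858487 (Mpped1) of GRCm38.p6. RefSeq promoters of that build, from 250 bases before to 50 bases after a start site, were matched for 5 of the 7 genes, with 2 start sites for Mpped1. Pou3f1 and Spink8 were not matched. Fezf2 and Wfs1 had the largest and the smallest mean fall in the arrays described next. Over all arrays, Fibcd1 was the gene whose combination and vorinostat groups did not overlap. The promoters of Fezf2, Fibcd1 and Wfs1 are therefore shown. They lie on the minus strand, at chr14:12345816-12346115 (Fezf2), chr2:31845956-31846255 (Fibcd1) and chr5:36988933-36989232 (Wfs1), are written 5′ to 3′ in the direction of transcription, and capitals mark the GC box GGGCGG, read on both strands.
Fezf2: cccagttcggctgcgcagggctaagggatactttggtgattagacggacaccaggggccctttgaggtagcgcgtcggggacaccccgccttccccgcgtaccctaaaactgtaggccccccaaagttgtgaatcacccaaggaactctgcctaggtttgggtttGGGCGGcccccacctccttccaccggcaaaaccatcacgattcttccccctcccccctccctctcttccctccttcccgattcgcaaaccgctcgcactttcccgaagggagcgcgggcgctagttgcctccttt
Fibcd1: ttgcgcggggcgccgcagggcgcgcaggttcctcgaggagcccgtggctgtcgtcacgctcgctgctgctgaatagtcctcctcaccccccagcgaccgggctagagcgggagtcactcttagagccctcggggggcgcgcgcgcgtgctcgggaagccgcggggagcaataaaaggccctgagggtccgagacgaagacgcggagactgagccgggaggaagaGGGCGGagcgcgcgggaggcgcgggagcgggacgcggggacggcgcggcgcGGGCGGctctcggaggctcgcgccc
Wfs1: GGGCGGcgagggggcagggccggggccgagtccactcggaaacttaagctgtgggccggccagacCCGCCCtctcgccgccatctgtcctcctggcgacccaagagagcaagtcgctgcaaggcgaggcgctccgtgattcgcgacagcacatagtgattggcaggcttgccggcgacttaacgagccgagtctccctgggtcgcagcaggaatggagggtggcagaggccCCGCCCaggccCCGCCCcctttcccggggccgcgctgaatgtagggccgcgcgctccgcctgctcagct
The GC box occurred 1 time in the Fezf2 window, 2 times in that of Fibcd1, 4 times in that of Wfs1 and 2 times in that of Man1a. Mpped1 had 9 at one start site and 0 at the other. The box was present in 35.7% of the 32851 promoters of the table. The cAMP response element TGACGTCA (1.79% of all promoters), the octamer ATGCAAAT (1.74%) and TATAAA (13.6%) matched in 0 of these 6 windows on either strand, and TGACG, which lies inside the first of these motifs, matched 1 time each in Fibcd1 and Man1a (20.8% of all promoters). CpG dinucleotides numbered 46 in Fibcd1, 38 in Man1a, 30 in Wfs1, 20 in Fezf2 and 59 and 3 at the starts of Mpped1, against a median of 7 over all promoters. These matches describe the windows and are no measurement of binding.

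The arrays were not alike within groups. Snord13, a small nucleolar RNA, lay between 7.27 and 8.46 in 12 arrays (combination 1 to 3, vehicle 1 to 3 and all arrays of vorinostat and tadalafil) and between 10.35 and 11.46 in the other 12 (combination 4 to 7, vehicle 4 to 7 and all of CM-414), which are called the first and the second array set. Vorinostat and tadalafil can be compared with vehicle within the first set only, and CM-414 within the second only. Apart from this division, CM-414 3 and vehicle 3 stood away from the rest in markers of brain region, so the comparisons between groups were run with all arrays and with the 22 arrays left without them.

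All 7 CA1 genes were lower in CM-414 3 and in vehicle 3 than in any of the other 22 arrays. Over all genes tested, 8.11% had both arrays below the other 22, and 1.73% did so with the mean of the 2 arrays lower by more than 1 log2 unit. The genes and the 2 arrays were chosen with earlier results of these data known, so this count is a description. The fold by which these arrays were lower ran from 1.80 (Wfs1 in CM-414 3) to 9.75 (Fezf2 in CM-414 3).

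Of the transcription factors, Fezf2 read 6.17 in CM-414 3, against 9.32, 9.54 and 9.51 in the other CM-414 arrays. It read 6.47 in vehicle 3, against 9.38 to 9.57 in the other 6 vehicle arrays. Both arrays were thus set apart from their own group by about the same distance, -3.29 in CM-414 3 and -3.03 in vehicle 3, and only 1 of the 17108 genes lay further below the 22 arrays on average. Pou3f1, a POU domain factor known from the timing of myelination in Schwann cells, read 6.15 in CM-414 3, against 7.47, 7.44 and 6.76 in the other CM-414 arrays. It read 6.64 in vehicle 3, against 7.36 to 7.79 in the other vehicle arrays. CM-414 4 was the lowest of the 22 arrays for Pou3f1 and lay 0.126 above vehicle 3, so that this gene separated the 2 arrays least clearly.

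Of the proteins of the secretory pathway, Man1a encodes an alpha-mannosidase that trims N-glycans in the Golgi. It read 7.32 in CM-414 3, against 8.70, 8.93 and 8.65 in the other CM-414 arrays. In vehicle 3 it read 7.82, against 8.82 to 9.18 in the other vehicle arrays. Wfs1, the gene of wolframin, an endoplasmic reticulum membrane protein lost in Wolfram syndrome, read 8.72 in CM-414 3, against 9.38, 9.57 and 9.74 in the other CM-414 arrays. In vehicle 3 it read 8.57, against 9.32 to 9.82 in the others. Wfs1 had the smallest shift of the 7 genes, ranking 468 of the 17108 genes by its distance below the 22 arrays, and it was the one member lower in vehicle 3 than in CM-414 3.

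Fibcd1, a receptor that binds acetylated groups such as those of chitin, read 7.37 in CM-414 3, against 8.69, 8.63 and 8.53 in the other CM-414 arrays, and 7.59 in vehicle 3, against 8.52 to 8.96 in the others. Spink8, of the Kazal type inhibitors, read 5.38 in CM-414 3, against 7.40, 8.11 and 7.21 in the other CM-414 arrays, and 5.93 in vehicle 3, against 7.15 to 8.17 in the others. Mpped1 read 6.46 in CM-414 3, against 7.88, 8.38 and 8.10 in the other CM-414 arrays, and 6.65 in vehicle 3, against 8.21 to 8.44 in the others. The distance of these 2 arrays from their groups was largest for Fezf2, then Spink8 and Mpped1, in both groups. The spread of the other 22 arrays followed another order: Spink8 had the largest SD (0.409), Pou3f1 and Wfs1 came next (0.233 and 0.220), and Fezf2, Mpped1, Fibcd1 and Man1a lay between 0.141 and 0.168.

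**Figure D1:**
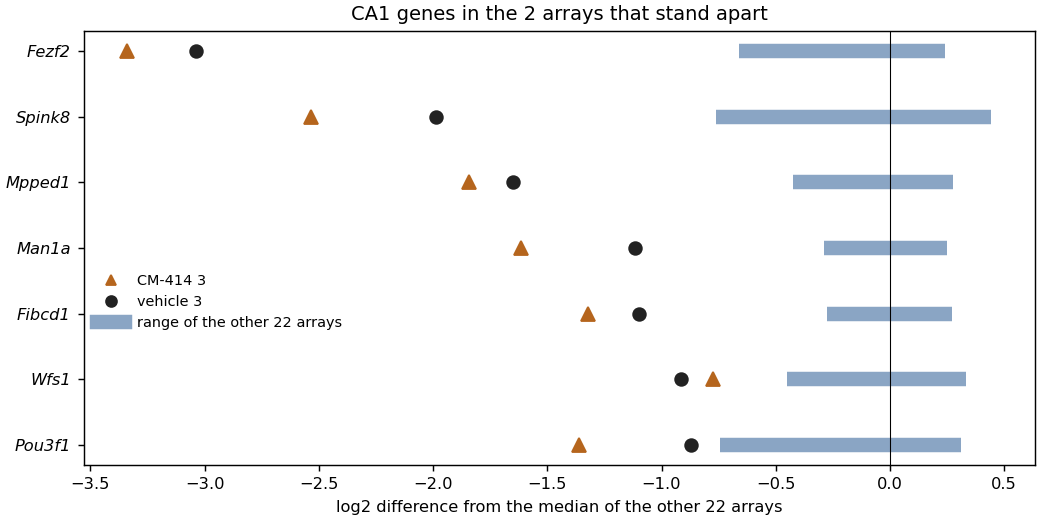
Each row is a CA1 gene, with its log2 difference from the median of the other 22 arrays on the horizontal axis, for CM-414 3 (triangle) and vehicle 3 (circle); bars span the lowest to the highest of the 22 arrays. All 14 points lie left of their bars, Fezf2 furthest (6.17 and 6.47 against a lowest value of 8.85) and Pou3f1 in vehicle 3 closest, at 0.126 below its bar.

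Other marker lists moved in the same arrays, and their part in the low values of the CA1 genes was not tested. The 2 arrays had been set aside for their region markers, and the lists were chosen with earlier results known. The counts below therefore describe these arrays and are no independent support. Thalamus markers were higher, 10 of 10 above all other 22 arrays, with a median gap of 1.59 between the mean of the 2 arrays and that of the 22 (8.56% of all genes lay above in both). Tcf7l2, a transcription factor of thalamic neurons, read 10.05 in CM-414 3 and 10.55 in vehicle 3, against 5.84 to 7.18 in the 22 arrays. Slc17a6, a vesicular glutamate transporter prominent in the thalamus, read 11.40 in CM-414 3 and 11.53 in vehicle 3, against 7.17 to 8.79. Prkcd, a protein kinase C isoform, read 9.77 in CM-414 3 and 8.87 in vehicle 3, against 6.95 to 8.77. Both arrays stood clear of all others for Tcf7l2 and Slc17a6, whereas vehicle 3 lay just above the highest other array for Prkcd. The mean of the list was 9.28 in CM-414 3 and 8.84 in vehicle 3, against 6.71 to 7.60 in the others, where vehicle 2 was highest. The CA1 genes averaged 6.80 in CM-414 3 and 7.10 in vehicle 3, against 8.36 to 8.79 in the 22. Vehicle 2 had the highest thalamus mean of the 22 (7.60), well below those of the 2 arrays, and the highest CA1 mean of all arrays (8.79). What this 1 array means for the other 2 was not tested.

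The low values were not particular to CA1. Of 12 measured genes of pyramidal neurons of several fields, 10 lay below all 22 arrays in both (median gap -1.94), against a median of -1.38 for the 7 CA1 genes. Neurod6, a basic helix-loop-helix factor of these neurons, had the largest gap of all genes (-3.20), just beyond Fezf2 (-3.16). Slc17a7, the vesicular glutamate transporter of cortical and hippocampal neurons, had a gap of -2.74. Dentate granule neuron markers were below in 4 of 9 (median gap -0.81). Markers of CA2 and CA3 were below in 3 and above in 3 of 11 (median gap -0.08). Interneuron genes were below in 5 and above in 3 of 9, with a median gap of -0.80, near that of the dentate granule list. Of oligodendrocyte genes 5 of 7 were above (median gap 0.63). Astrocyte genes were below in 2 and above in 1 of 6 (-0.14), and microglia genes below in 2 of 6 (-0.32). Choroid plexus genes were below in 1 of 7 (-0.52). Genes of the ventral pole and subiculum were below in 2 and above in 1 of 6 (-0.28), and endothelial genes in 0 of 6 (0.04).

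**Figure D2:**
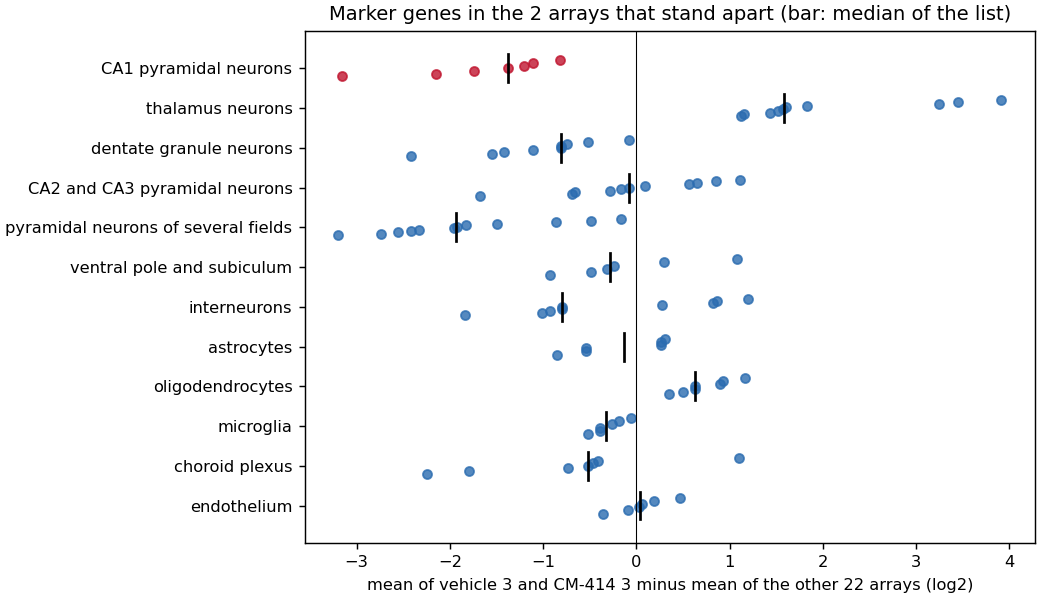
Each point is a marker gene, with the mean of CM-414 3 and vehicle 3 minus the mean of the other 22 arrays (log2) on the horizontal axis; rows are lists, the CA1 genes at the top, and bars are list medians. The 7 CA1 genes lie between -3.16 and -0.82 and the 10 thalamus genes all lie above 0, with a median of 1.59.

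Between the groups, 0 of the 7 CA1 genes passed an adjusted p of 0.05 in any of the 8 comparisons, with all arrays or with 22 (limma, Benjamini-Hochberg over 17108 genes). An F test across the 5 groups also called 0 of 7, against 0.152% of all genes with all arrays and 0.164% with 22 arrays. With 22 arrays Wfs1 had the smallest F test p of the 7 (0.0443, adjusted 0.30 by limma). The comparisons with vehicle share its arrays and are not independent of each other, and their p-values measure the spread between these animals, for which no litter or cage is given.

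**Figure D3:**
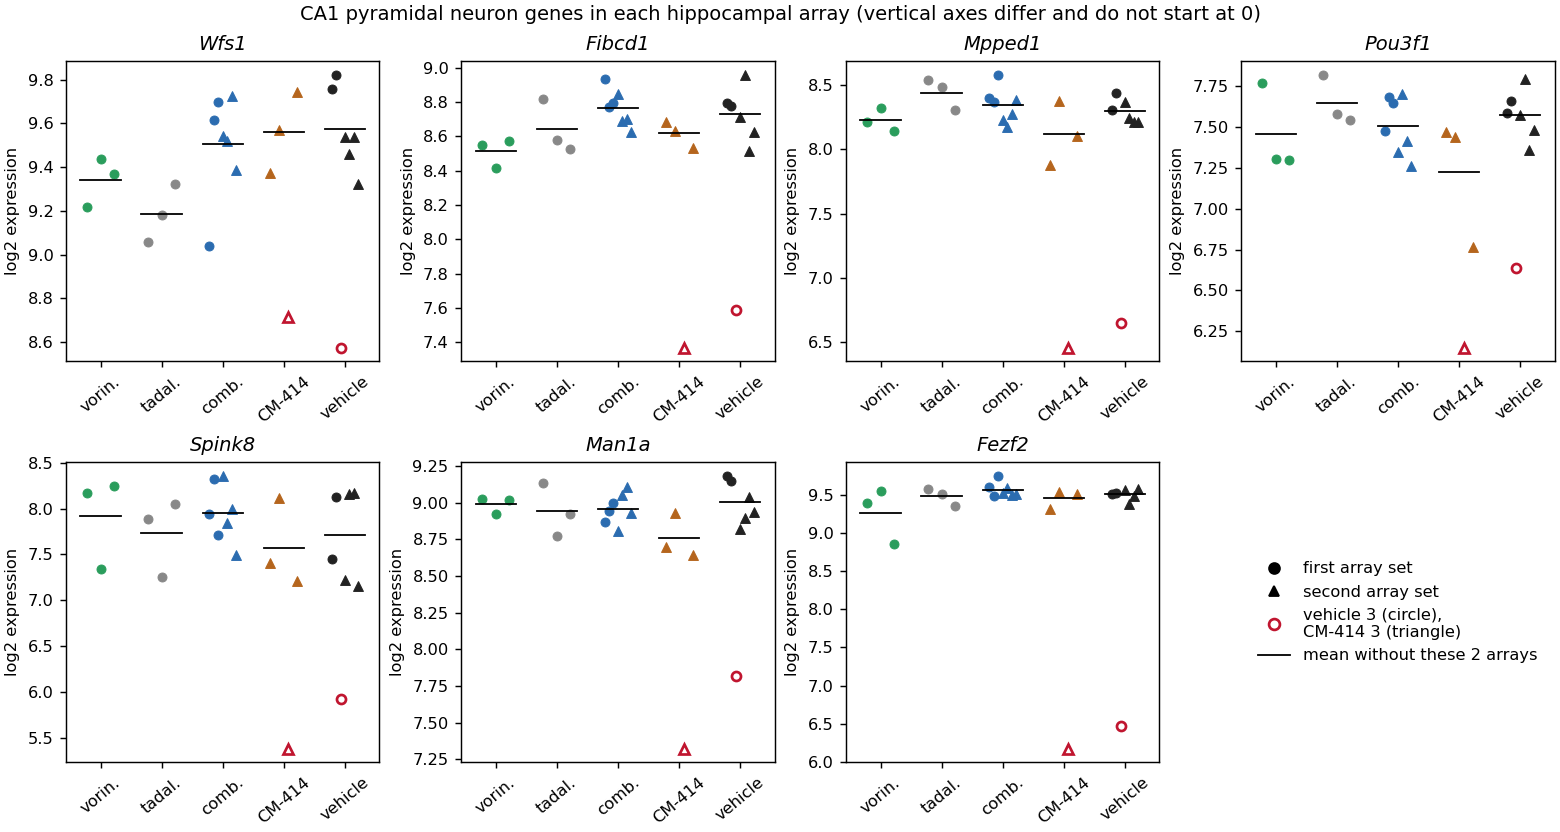
Each panel is a CA1 gene, with its log2 expression in each array on the vertical axis; circles are the first and triangles the second array set, open red symbols are CM-414 3 (triangle) and vehicle 3 (circle), and lines are group means without these 2 arrays. In every panel the 2 open symbols are the lowest points, and the other arrays of the 5 groups share most of their range.

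With vorinostat, leaving out vehicle 3 turned the balance of the CA1 genes. With all arrays 5 of 7 were above vehicle (median difference 0.15, median of all genes -0.01, 46.3% of all genes above), and with 22 arrays 1 of 7 was (median -0.12, all genes -0.02, 45.3% above). In both fits 0 of 7 CA1 genes passed the adjusted p, and limma called 0.00585% of all genes with all arrays and 0.0292% with 22. At an unadjusted p below 0.05 there were 0 of 7 with all arrays (8.76% of all genes) and 2 of 7 with 22 (12.1%). These 2 were Fibcd1 and Fezf2. Fibcd1 read 8.55, 8.41 and 8.57 with vorinostat, against 8.52 to 8.96, median 8.75, in the 6 vehicle arrays. Vorinostat arrays lay in and below the low end of vehicle, with a difference of -0.22 (SE 0.09, 95% interval -0.40 to -0.03, limma adjusted p = 0.327), against -0.06 with all arrays (limma adjusted p = 0.976). Fezf2 read 9.40, 9.55 and 8.85 with vorinostat, against 9.38 to 9.57, median 9.51, with vehicle. Only vorinostat 3 lay outside the vehicle range, and the difference was -0.24 (SE 0.11, limma adjusted p = 0.372). With vehicle 3 in the fit it had the other sign, 0.20 (SE 0.58, limma adjusted p = 0.96). Within the first array set and without vehicle 3, all 3 vorinostat arrays lay below vehicle 1 and 2 for Wfs1, Fibcd1 and Man1a, and groups did not overlap, in one direction or the other, for 25.8% of all genes. Wfs1 then differed by -0.45 (SE 0.17, limma adjusted p = 0.464) and Man1a by -0.18 (SE 0.11, limma adjusted p = 0.64). The other list of pyramidal neuron genes was lower too with 22 arrays, with 10 of 12 genes below vehicle, a median of -0.14 and 0 past the adjusted p, and all 7 choroid plexus markers were above (median 0.67, 0 past the adjusted p); the part of either in these values was not tested.

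With tadalafil, Wfs1 was the CA1 gene furthest from vehicle with 22 arrays, whereas with all arrays Fezf2 (0.41), Mpped1 (0.38) and Spink8 (0.27) lay further off, above vehicle. It read 9.06, 9.18 and 9.33 with tadalafil, against 9.32 to 9.82, median 9.54, in the 6 vehicle arrays. Tadalafil 1 and 2 lay below the lowest vehicle array, and tadalafil 3 just above it. The difference was -0.39 (0.765-fold, SE 0.13, 95% interval -0.65 to -0.12, unadjusted p = 0.0065, limma adjusted p = 0.539), and -0.24 with all arrays. Within the first array set it was -0.60 (SE 0.17, limma adjusted p = 0.673) against vehicle 1 and 2, both above every tadalafil array, and groups were apart in either direction for 22.6% of all genes. Man1a was apart there too, at 8.77 to 9.13 with tadalafil and 9.15 to 9.18 in vehicle 1 and 2. Of the CA1 genes other than Wfs1, Mpped1 stood 0.14 above vehicle and the rest between -0.09 and 0.07 with 22 arrays. Counted over the list, 6 of 7 were above vehicle with all arrays (median 0.20, 50.0% of all genes) and 3 of 7 with 22 (median -0.02, 49.1%). At an unadjusted p below 0.05 there were 0 of 7 (5.32% of all genes) and 1 of 7 (7.7%), and limma called 0.0% of all genes in both.

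With the combination, the distance from vehicle was smaller once vehicle 3 was left out. All 7 CA1 genes were above vehicle with all arrays (median difference 0.20, 49.7% of all genes above), and 4 of 7 with 22 arrays (median 0.03, 49.0%). No gene of the 17108 was called by limma in either fit (0.0%), and 0 of 7 CA1 genes had an unadjusted p below 0.05 in either (4.04% and 4.36% of all genes). Fezf2 read 9.49 to 9.75, median 9.53, in the 7 combination arrays, against 9.38 to 9.57, median 9.51, in 6 vehicle arrays. Its difference was 0.06 with 22 arrays, with a 95% interval of -0.11 to 0.23, and 0.49 with all arrays, with an interval of -0.43 to 1.42. Apart from vehicle 3, the groups overlapped. Fibcd1 differed by 0.03 (-0.11 to 0.18), Mpped1 by 0.05 (-0.11 to 0.21), Man1a by -0.05 (-0.20 to 0.11), Wfs1 by -0.07 (-0.28 to 0.14) and Pou3f1 by -0.07 (-0.30 to 0.16). Spink8, with the widest spread, read 7.50 to 8.36, median 7.94, with the combination, against 7.15 to 8.17, median 7.79, with vehicle, and its interval ran from -0.20 to 0.68. With all arrays the 7 differences lay between 0.06 and 0.49.

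The array sets gave the combination effect in separate animals. Within the first set and without vehicle 3, Wfs1 was -0.34 and Man1a -0.23 against vehicle 1 and 2, which lay above all 3 combination arrays for both genes, and groups were apart in either direction for 22.7% of all genes. Within the second set the same genes differed by 0.08 and 0.05. The effect in the second set minus that in the first was 0.42 for Wfs1 (SE 0.20, limma adjusted p = 0.708) and 0.28 for Man1a (SE 0.12, unadjusted p = 0.0369, limma adjusted p = 0.689) without vehicle 3. With it, the same quantity was 0.01 for Wfs1 (limma adjusted p = 0.996) and -0.17 for Man1a (limma adjusted p = 0.935), so the sign for Man1a turned on 1 array. In both fits 0 of 7 genes passed (0.0% of all genes). With 2 vehicle arrays left in the first set, these values rest on few animals.

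With CM-414, all 7 CA1 genes were below vehicle with all arrays and with 22, in fits that pool vehicle arrays of both sets. The median difference was -0.43 with all arrays, 0.059 when CM-414 3 alone was left out and -0.14 with 22, against -0.01 for all genes with all arrays and with 22, where 47.6% and 46.7% of genes lay above vehicle. At an unadjusted p below 0.05 there was 1 of 7 (12.6% of all genes) with all arrays and 2 of 7 (13.9%) with 22, and limma called 0.00585% of all genes in both. Man1a read 8.70, 8.93 and 8.65 in CM-414 1, 2 and 4, against 8.82 to 9.18, median 8.99, with vehicle. CM-414 1 and 4 lay below every one of the 6 vehicle arrays and CM-414 2 among them, with a difference of -0.25 (SE 0.09, 95% interval -0.44 to -0.05, limma adjusted p = 0.237), and -0.44 with all arrays (limma adjusted p = 0.441). Pou3f1 read 7.47, 7.44 and 6.76, against 7.36 to 7.79, median 7.58, with vehicle. CM-414 4 was alone below the vehicle range, and the difference of -0.35 (SE 0.14, limma adjusted p = 0.269) was -0.12 (limma adjusted p = 0.839) without that array and -0.49 with all arrays (limma adjusted p = 0.315). CM-414 4 also stood at the edge of the 22 arrays in other markers, with the lowest mean for the dentate granule list (6.96) and the astrocyte list (9.49) and the highest for the list of ventral pole and subiculum (8.68). CM-414 1 stood at the edge too, with the highest mean for the dentate granule list (8.415), pyramidal neurons of several fields (9.41) and microglia (8.03). The part of these lists in the values was not tested. Within the second array set, and without CM-414 3, 1 of 7 genes was above vehicle (median -0.10, 47.1% of all genes above). There 0 of 7 had an unadjusted p below 0.05 by limma (9.29% of all genes). Man1a differed by -0.16 and Pou3f1 by -0.33 in that fit (limma adjusted p = 0.603 and 0.561). With CM-414 4 left out of the 22 as well, 1 of 7 was above vehicle (48.1% of all genes) and 0 of 7 had an unadjusted p below 0.05 (8.14%). Wfs1 and Fezf2 were closest to vehicle, at -0.01 and -0.05 with 22 arrays. Genes of pyramidal neurons of several fields stood at a median of -0.30 with all arrays and -0.00052 with 22, with 6 of 12 above vehicle and 0 past the adjusted p. With 22 arrays oligodendrocyte genes were above vehicle in 0 of 7 (median -0.19), dentate granule genes in 2 of 9 (-0.13) and astrocyte genes in 1 of 6 (-0.08), with 0 past the adjusted p, and their part was not tested.

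**Figure D4:**
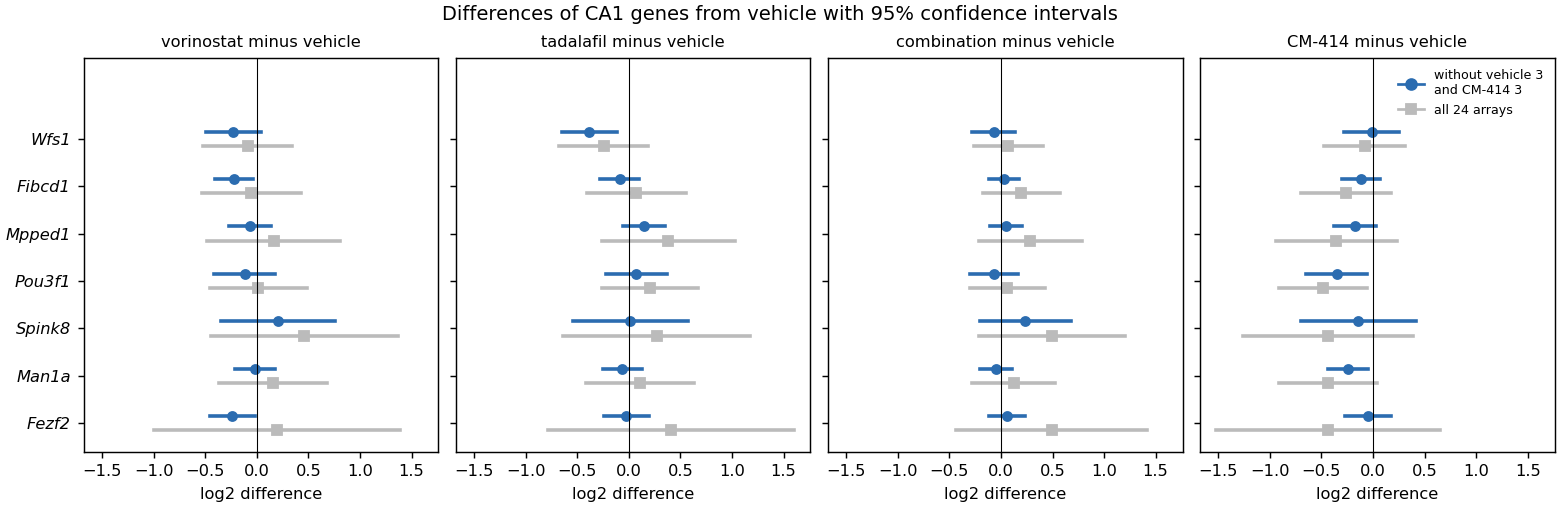
Each panel is 1 treatment minus vehicle, with the log2 difference on the horizontal axis and a row for each CA1 gene; points are limma estimates and lines their 95% confidence intervals, blue without CM-414 3 and vehicle 3 and grey with all 24 arrays. The grey lines are wider throughout, most for Fezf2 (-0.43 to 1.42 for the combination, against -0.11 to 0.23), and the blue line furthest from 0 is that of Wfs1 with tadalafil (-0.65 to -0.12).

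Compared with the single drugs, the combination was measured without the arrays that stood apart, so these differences were the same with all arrays and with 22 while their errors were not. Against vorinostat, Fibcd1 read 8.63 to 8.94, median 8.77, in the combination and 8.41 to 8.57 in the vorinostat arrays. The groups did not overlap, as for 4.95% of all genes in either direction, and the difference was 0.25 with an SE of 0.23 (limma adjusted p = 0.826) with all arrays and an SE of 0.09 (95% interval 0.07 to 0.43, limma adjusted p = 0.28) with 22. Fezf2 differed by 0.30 (SE 0.10 with 22 arrays, limma adjusted p = 0.287), where vorinostat 3 was low. Of the 7 genes, 6 were above vorinostat (median 0.12, 53.4% of all genes above), 2 of 7 at an unadjusted p below 0.05 with 22 arrays (11.6% of all genes) and 0 of 7 with all (8.41%). Limma called 0.0% of all genes with all arrays and 0.00585% with 22. Other lists moved in this comparison too, and their part was not tested: with 22 arrays choroid plexus genes were above vorinostat in 0 of 7 (median -0.69), microglia genes in 6 of 6 (0.09) and genes of pyramidal neurons of several fields in 9 of 12 (0.15), with 0 past the adjusted p. Within the first array set, which holds all vorinostat arrays, Fibcd1 differed by 0.32 (SE 0.09, limma adjusted p = 0.506) and Fezf2 by 0.34 (SE 0.15, limma adjusted p = 0.585). Against tadalafil, Wfs1 read 9.04 to 9.72, median 9.54, in the combination and 9.06, 9.18 and 9.33 in the tadalafil arrays. Combination 1 lay below all 3 tadalafil arrays and the other combination arrays above them, with a difference of 0.32 (SE 0.13 with 22 arrays, limma adjusted p = 0.847) and of 0.26 within the first array set (SE 0.15). The list had a median of 0.08, with 5 of 7 above tadalafil (49.7% of all genes), and limma called 0.0% of all genes in both fits, with 0 of 7 CA1 genes at an unadjusted p below 0.05 with all arrays (4.17% of all genes) and 1 of 7 with 22 (5.79%).

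CM-414 was set against the combination at the same age and schedule, without matched doses being given in the labels. With all arrays all 7 CA1 genes were lower with CM-414 (median -0.56, 49.1% of all genes above) and 5 of 7 had an unadjusted p below 0.05 (15.9% of all genes), with 0 past the adjusted p (0.0234% of all genes). With 22 arrays 6 of 7 were lower (median -0.20, 48.4% of all genes above) and 2 of 7 had an unadjusted p below 0.05 (14.7%), again with 0 past the adjusted p (0.0% of all genes). These 2 were Mpped1 and Man1a. Mpped1 read 7.88, 8.38 and 8.10 with CM-414, against 8.17 to 8.58, median 8.37, with the combination. CM-414 1 and 4 lay below all combination arrays, and the difference was -0.23 (SE 0.09, 95% interval -0.42 to -0.03, limma adjusted p = 0.27). Man1a differed by -0.20 (SE 0.09, limma adjusted p = 0.308). All CM-414 arrays belong to the second set, while combination 1 to 3 belong to the first. Within the second set and without CM-414 3, Mpped1 differed by -0.15 (SE 0.11, limma adjusted p = 0.674) and Man1a by -0.21 (SE 0.10, limma adjusted p = 0.556), and 1 of 7 genes had an unadjusted p below 0.05 (8.97% of all genes). With the array set as a block over 22 arrays 0 of 7 had one (10.8%).

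The combination was also tested for additivity, as the combination minus vorinostat minus tadalafil plus vehicle. With 22 arrays Wfs1 stood 0.55 above the sum of the drugs' separate differences (SE 0.18, 95% interval 0.17 to 0.92, unadjusted p = 0.00588, limma adjusted p = 0.177). Fibcd1 stood 0.34 above (limma adjusted p = 0.212) and Fezf2 0.32 (limma adjusted p = 0.33), while Mpped1, Pou3f1, Spink8 and Man1a lay between -0.03 and 0.03. This fit pools combination and vehicle arrays of both sets, whereas the single drugs lie in the first set only. Within the first set and without vehicle 3 all 7 genes lay above the sum (57.3% of all genes), from 0.12 (Pou3f1) to 0.71 (Wfs1, limma adjusted p = 0.50). The median was 0.17, against 0.03 in the pooled fit, with 0 past the adjusted p. That fit rests on vehicle 1 and 2, which all 7 genes share. With vehicle 3 kept in the first set, 2 of 7 lay above the sum (55.0% of all genes), with a median of -0.28. The balance thus turned on 1 array. Of the 7 genes, 5 lay above the sum with 22 arrays (53.3% of all genes) and 2 with all arrays (52.5%). With 22 arrays 3 of 7 had an unadjusted p below 0.05 and 0 passed the adjusted p, against 14.1% and 0.0409% of all genes. With all arrays 0 of 7 had an unadjusted p below 0.05 (10.2%) and 0 passed the adjusted p (0.0175%), and Fezf2 lay at -0.11. The Wfs1 mean was 9.34 with vorinostat, 9.19 with tadalafil, 9.50 with the combination and 9.57 with vehicle.

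The order of the groups differed from gene to gene and with the arrays used. With 22 arrays the combination had the highest mean for Fezf2 (9.57), Fibcd1 (8.77) and Spink8 (7.95), tadalafil for Mpped1 (8.44) and Pou3f1 (7.65), and vehicle for Man1a (9.01) and Wfs1 (9.57). The lowest mean was that of CM-414 for Mpped1 (8.12), Pou3f1 (7.22), Spink8 (7.57) and Man1a (8.76), that of vorinostat for Fibcd1 (8.51) and Fezf2 (9.27), and that of tadalafil for Wfs1 (9.19). Neighbours in these orders did not differ past the adjusted p for any gene in the pairs that were tested. With all arrays CM-414 was lowest for every gene but Wfs1, the combination was highest for Wfs1 too (9.50) and vorinostat was highest for Man1a (8.99). With 22 arrays the mean of the 7 genes was 8.53 ± 0.08 with vorinostat (SD, n = 3), 8.58 ± 0.11 with tadalafil (n = 3), 8.66 ± 0.08 with the combination (n = 7), 8.47 ± 0.16 with CM-414 (n = 3) and 8.63 ± 0.11 with vehicle (n = 6). With all arrays it was 8.05 ± 0.85 with CM-414 (n = 4) and 8.41 ± 0.59 with vehicle (n = 7).

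How the 7 genes varied together depended on the same 2 arrays. Over all 24 arrays the 21 pairs of genes correlated with a median Pearson's r of 0.84 (0.49 to 0.97), and over 22 arrays with a median of 0.17 (-0.30 to 0.52, 18 of 21 pairs above 0). The closest pair in both was Fezf2 and Mpped1 (0.97 and 0.52). Fezf2 and Spink8 had the lowest r over 22 arrays (-0.30), and Wfs1 with Pou3f1 was at -0.24. The SD within groups fell likewise, to 0.154 for Fezf2 over 22 arrays, against 0.929 over 24, while the median over all genes was 0.146 and 0.162. These correlations are descriptions over arrays that share treatments and array sets.

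Over the 22 arrays the mean of the 7 genes was most like Tmem199 (Pearson's r = 0.84), Mipep (0.83), S100a10 (0.83), Ap2b1 (0.82), Casd1 (0.82), Atp5pb (0.81), Eif3b (0.81) and Spring1 (0.81). The lowest correlations were those of Olfr76 and Mrtfb (-0.75 each), Pjvk and Dsc1 (-0.74 each). With CM-414 3 and vehicle 3 included, these correlations were others: over 24 arrays Tmem199 was at -0.14, Atp5pb at -0.11 and Spring1 at 0.0024, while Ap2b1 was at 0.74 and Mrtfb, at 0.87, had the opposite sign. Of single members, Fibcd1 was closest to Itpka (0.84), an inositol trisphosphate kinase of dendritic spines, and Mpped1 to Ltn1 (0.90). Spink8 was closest to Lrp2 (0.79), the endocytic receptor megalin, and Wfs1 to Slc22a23 (0.76). Spink8 also varied with the endothelial list (0.52) and the choroid plexus list (0.43). Pou3f1 had an r of 0.64 with the astrocyte list and of -0.55 with that of ventral pole and subiculum. The mean of the 7 genes varied with the astrocyte list (0.56) and the endothelial list (0.47). Their mean had an r of 0.08 with the list of pyramidal neurons of several fields and of 0.19 with the thalamus list over these 22 arrays.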

How the data were processed

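Hippocampal RNA from 24 mice in 5 groups was measured on Affymetrix Mouse Gene 2.0 ST arrays. The authors deposited log2 expression values after RMA, whose version is not given in sources used here. The number of arrays limits the precision. Of 41345 probe sets, 23521 name 1 gene, 1820 several and 16004 none in the platform annotation; the last 2 kinds were left out. A probe set was kept when above 4 on the log2 scale (16 linear) in at least 2 arrays of each group, non-coding genes (by GRCm38.p6 RefSeq) were left out, and the probe set of highest mean was taken for each gene.

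Groups were compared in 1 fit over all arrays with limma 3.58.1 in R 4.3.3, with Benjamini-Hochberg adjustment over 17108 genes and a threshold of 0.05. The script was tested on simulated data. Array sets were split at 9 for Snord13. Members and marker lists were chosen with earlier results of these data known. The text names all 7 members, thalamus markers Tcf7l2, Slc17a6 and Prkcd, and the 8 genes most and 4 least correlated with the mean of the members; Neurod6, Slc17a7, Itpka, Ltn1, Lrp2 and Slc22a23 were named after their values were seen. Alternatives were other filters, the mean of probe sets, non-coding genes kept, arrays centred on their median, array weights, a trended and robust prior, the replicate number or the array set as a block, each set alone, only the groups compared, the 22 arrays, and each array left out; 2 more were added after seeing the data: each array set alone without its array that stood apart, and CM-414 4 left out as well. Whether replicate numbers pair samples is not known. Of 36 same-numbered pairs of arrays, 12 had deviations correlated above 0.1, with r from -0.24 to 0.73. Their median r was -0.005, against 0.01 for other pairs. These correlations cannot decide the question, because the same number can lie in different array sets and paired animals need not correlate.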

Additional observations from a re-analysis of the deposited data

Results flagged for a closer look

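Single arrays lay far from the rest of their group in 8 of the 21 combinations of a CA1 gene with a group of 4 to 7 arrays, by Dixon's test of the gap to the nearest array over the range of the group. Chance marks about 1 in 20 such groups, but the 7 genes share arrays. CM-414 3 and vehicle 3 were already known to stand apart, so the count describes them and is no independent support. CM-414 3 was low for Fezf2 (6.17) and for Fibcd1 (7.37). Vehicle 3 was low for Fezf2 (6.47), Fibcd1 (7.59), Mpped1 (6.65), Pou3f1 (6.64), Man1a (7.82) and Wfs1 (8.57). Spink8, whose other arrays varied most, was in neither group marked by this test. No other array was marked for any of the 7 genes.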

How the results depend on the processing

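Under all alternatives together, 0 of 1526 values of a CA1 gene passed the adjusted p of limma and 124 changed sign. The smallest adjusted p was 0.0655, without CM-414 replicate 2. An unadjusted p below 0.05 by limma was found for 169 of the 1526. These values are refits of the same CA1 genes on shared arrays and are not independent. The share of all genes with such a p was counted for some alternatives only. It ran from 2.38% (combination against tadalafil, first array set alone) to 17.7% (CM-414 against the combination, replicate number as a block). The median difference of the CA1 genes between CM-414 and vehicle, -0.43 with all arrays, ran from -0.61 to 0.059 when each array was left out in turn, the last without CM-414 3. Leaving out vehicle 3 turned the median for vorinostat to -0.12 and for tadalafil to -0.02 and brought the combination to 0.03. With the replicate number as a block, 0 CA1 genes were called and 5 of 56 values changed sign, with median differences from vehicle of 0.25 for vorinostat, 0.21 for tadalafil, 0.20 for the combination and -0.32 for CM-414; over all genes limma then called 275 for CM-414 against vehicle (1 without the block) and 268 for CM-414 against the combination (4 without it). The numbers are not known to pair animals. Other filters, centring and a trended prior changed no sign, whereas array weights changed 11 of 56 and the array set as a block 4 of 56. Groups of 3 or 4 arrays, array sets that hold whole groups and the absence of scanner files limit what can be seen here, and whole tissue does not resolve CA1.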
